A study of Mus musculus with 6 samples.

Results

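The genes described here encode ubiquitin-specific proteases, the USP genes. They were taken by symbol as the protein-coding genes named Usp followed by a number in the mouse GRCm38 annotation, with chromosome Y left out, and 55 of the 48709 genes in the count table met this rule. RNA was sequenced from G1E-ER4 cells, red cell precursors of mouse embryonic stem cell origin with an added GATA-1 construct, whose estrogen receptor part lets tamoxifen send it to the nucleus and start differentiation. Cells of both groups received tamoxifen for 28 h, after 2 h with either the CHD4-APR peptide, which carries an aggregation-prone stretch of the chromatin remodeler CHD4, or the CTRL peptide, a run of alanines, each joined to Tat and given at 10 μM. There were 3 libraries per group. The tamoxifen dose is 100 nM in the growth description and 100 μM in the design description. The model is a single engineered line, and nothing in the descriptions says that the libraries of a group came from separate cultures, so p-values measure only the spread between these libraries.

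Ubiquitin is a small protein that is joined to other proteins, singly or in chains, and marks them for breakdown by the proteasome or changes their place and partners. Deubiquitinases remove it, and the USP enzymes, cysteine proteases that share a catalytic fold, are their largest family. Members act on histones, on DNA repair factors, on receptors in endosomes and on the proteasome's own substrates. In red cell precursors, ubiquitin-dependent turnover clears proteins as the cells mature. One gene of the set, Usp6nl, shares only the symbol and encodes a Rab GTPase-activating protein.

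The total counts were 41687482 to 49784177 in the CTRL libraries and 41945739 to 46888804 in the CHD4-APR libraries. Of all genes, 12722 had enough counts for edgeR's quasi-likelihood test, and 38.3% of these had a Benjamini-Hochberg adjusted p (FDR) under 0.05. The labels call the cells immature erythroblasts, and all 11 erythroid markers examined were expressed. Of these, Hbb-bs (log2 fold change -0.33), Hbb-bt (-0.32), Hba-a1 (-0.25) and Klf1 (-0.17) fell, Gata1 (0.21) and Tfrc (0.26) rose and 5 did not pass. After the length and GC correction described below, Hbb-bs (-0.18) and Hbb-bt (-0.18) were still called lower and Gata1 (0.35) higher, Slc4a1 was called higher (0.12), and Hba-a1 (-0.05), Klf1 (-0.01) and Tfrc (-0.03) were not called. The Gata1 counts could include reads of the added GATA-1 construct, which were not told apart from the cells' own gene. The 11 erythroid markers had a summed level of 60800 to 65300 CPM (counts scaled to the size of the library) in the CTRL libraries and 51820 to 55295 in the CHD4-APR libraries, most of it from the globin genes. The 3 embryonic stem markers were at 0 in every library. The 5 myeloid markers summed to 178 to 206 CPM in the CTRL and 162 to 163 CPM in the CHD4-APR libraries, nearly all of it Spi1, with Mpo at 0, and the 4 megakaryocyte markers to 46.7 to 48.8 and 39.9 to 45.7 CPM, with Ppbp at 0. Whether these differences play a part in the results for USP genes was not tested. In bulk RNA, fewer cells of a type and less RNA per cell cannot be told apart.

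Of the 55 USP genes, 46 were expressed well enough for the test and 9 had no count in any library. The 9 were Usp13, Usp26, Usp43, Usp51 and the 5 copies Usp17la, Usp17lb, Usp17lc, Usp17ld and Usp17le. With a floor of 3 counts, a level of up to 0.0603 to 0.0720 CPM per library would have gone unseen. Every member with any count passed the filter, and 38.9% of the 21695 protein-coding genes in the table were likewise at 0 throughout. Counts of near-identical copies such as the Usp17 genes are uncertain, since reads that match several genes may not have been counted.

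At an FDR under 0.05 in edgeR's quasi-likelihood test, 23 of the 46 tested members rose (20.4% of all tested genes rose), 2 fell (17.8% of all tested genes fell) and 21 did not pass with the CHD4-APR peptide. With the length and GC correction described below, 10 were called higher, 6 lower and 30 were not called. Without the correction the fold change was positive in 36 of the 46, with a median log2 fold change of 0.15, against -0.01 over all genes tested. The changes were small: the members called higher rose 1.10-fold to 1.97-fold, and only Usp44 and Usp45 passed 1.5-fold, where 4.23% of all genes did. All 3 CHD4-APR libraries lay above all 3 CTRL libraries for 26 members (25.0% of all genes) and below them for 5 (25.0% of all genes). Summed over the family, the level was 3198, 3327 and 3300 CPM in the CTRL libraries and 3666, 3647 and 3641 CPM in the CHD4-APR libraries. The groups did not overlap in this sum.

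The fold changes were related to the GC content of the annotated transcripts. Across all genes tested, the log2 fold change was lower where the GC content of the longest transcript was higher (Pearson's r = -0.40 across 12677 genes, which are not independent replicates), and across the 46 USP genes r was -0.46. A fit that removed the trend of each library on exonic length and GC content left 10 USP genes higher (11.7% of all genes tested there), 6 lower (15.9%) and 30 not called, and the median log2 fold change of the family was then 0.02, against -0.02 over all genes. Of the 23 members called higher without the correction, 9 were called higher with it, 11 were not called and 3 were called lower, whereas both members called lower stayed lower. The 9 were Usp44, Usp45, Usp42, Usp31, Usp32, Usp25, Usp38, Usp1 and Usp6nl, and Usp2 joined them. What produced the trend was not tested. Both values are therefore given for each member below, with the value after the length and GC correction called the corrected value.

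**Figure D1:**
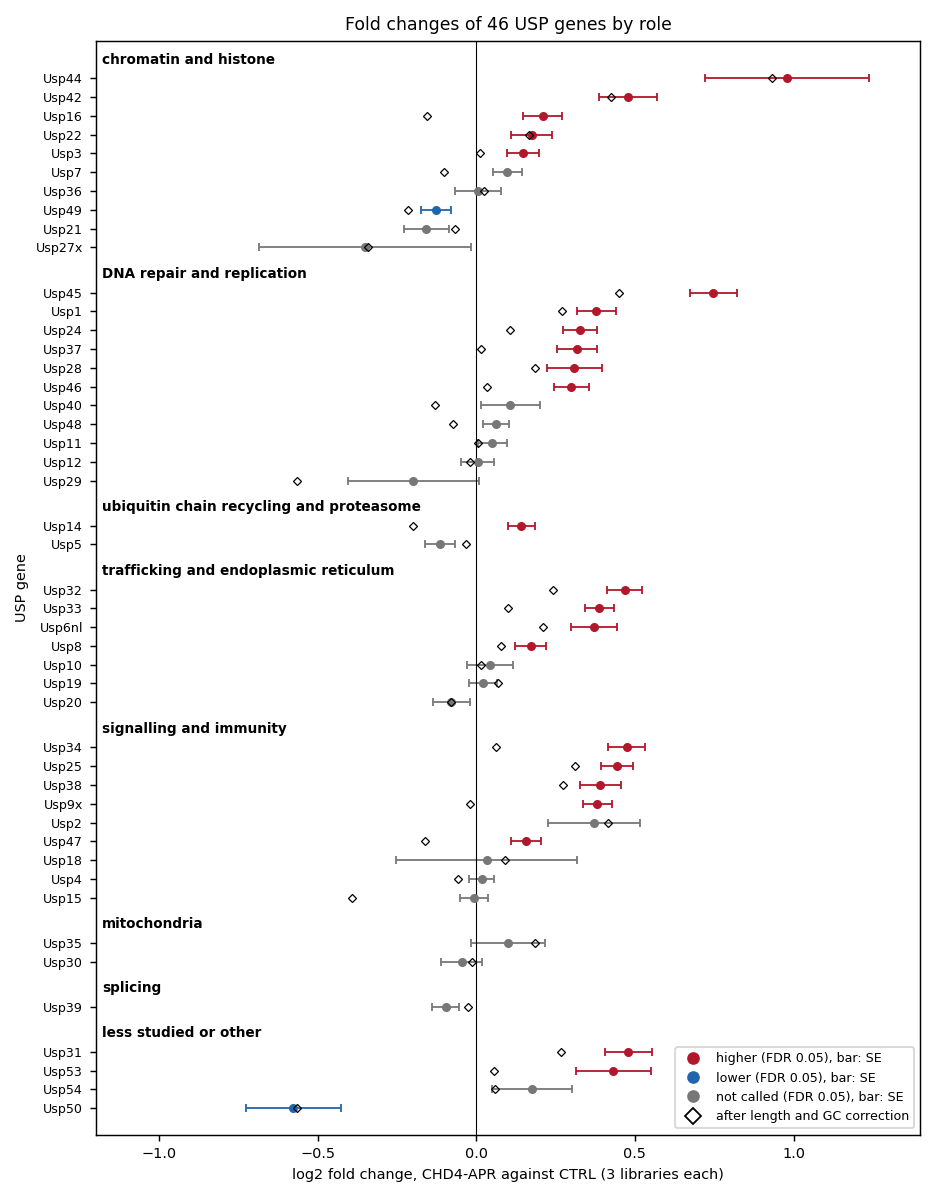
Log2 fold change of the 46 tested USP genes between 3 CHD4-APR and 3 CTRL libraries, by role. Filled points with bars are edgeR's estimate and its standard error, coloured by the call at an FDR of 0.05 and open diamonds are the corrected values, and 35 of the 46 diamonds lie to the left of their point.

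Per length, the family spanned a wide range of levels. The RPKM value, CPM divided by the exonic length in kilobases, ran in the CTRL libraries from 0.0829 for Usp29 to 50.1 for Usp4, with a median of 4.61. At 10 RPKM or more, 8 of 18 members were called higher and 1 lower, where 16.2% and 39.1% of all genes at that level were. From 1 to under 10 RPKM it was 13 of 21 and 1 (28.0% and 9.13% of all genes), and under 1 RPKM it was 2 of 7 and 0 (13.1% and 1.63%). Standard errors of the log2 fold change were 0.04 to 0.06 in the first of these classes and 0.12 to 0.33 in the last, so small changes of the weakly expressed members were not detectable at this depth.

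The most highly expressed members per length were Usp4, Usp19 and Usp39. Usp4, which acts in TGF-beta and Wnt signalling, was at 435, 435 and 427 CPM in the CTRL libraries and 436, 437 and 439 CPM in the CHD4-APR libraries, or 50.1 ± 0.53 RPKM (SD, n = 3) in CTRL. The groups did not overlap, but differed by a log2 fold change of only 0.02 ± 0.04 (SE, FDR 0.774, edgeR's quasi-likelihood test with Benjamini-Hochberg adjustment), and the corrected value was -0.06. Usp19, anchored in the endoplasmic reticulum, was at 344, 328 and 345 CPM in CTRL and 358, 336 and 337 CPM in CHD4-APR libraries, with overlapping groups (log2 fold change 0.02 ± 0.04, FDR 0.754) and a corrected value of 0.07. Usp39, a splicing factor of the tri-snRNP that has lost protease activity, was at 80.2, 79.8 and 79.8 CPM in CTRL and 74.0, 74.6 and 75.7 CPM in CHD4-APR libraries. All 3 CHD4-APR libraries were below the CTRL libraries for Usp39, yet the difference did not pass (log2 fold change -0.10 ± 0.04, FDR 0.0932), and its corrected value was -0.03.

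**Figure D2:**
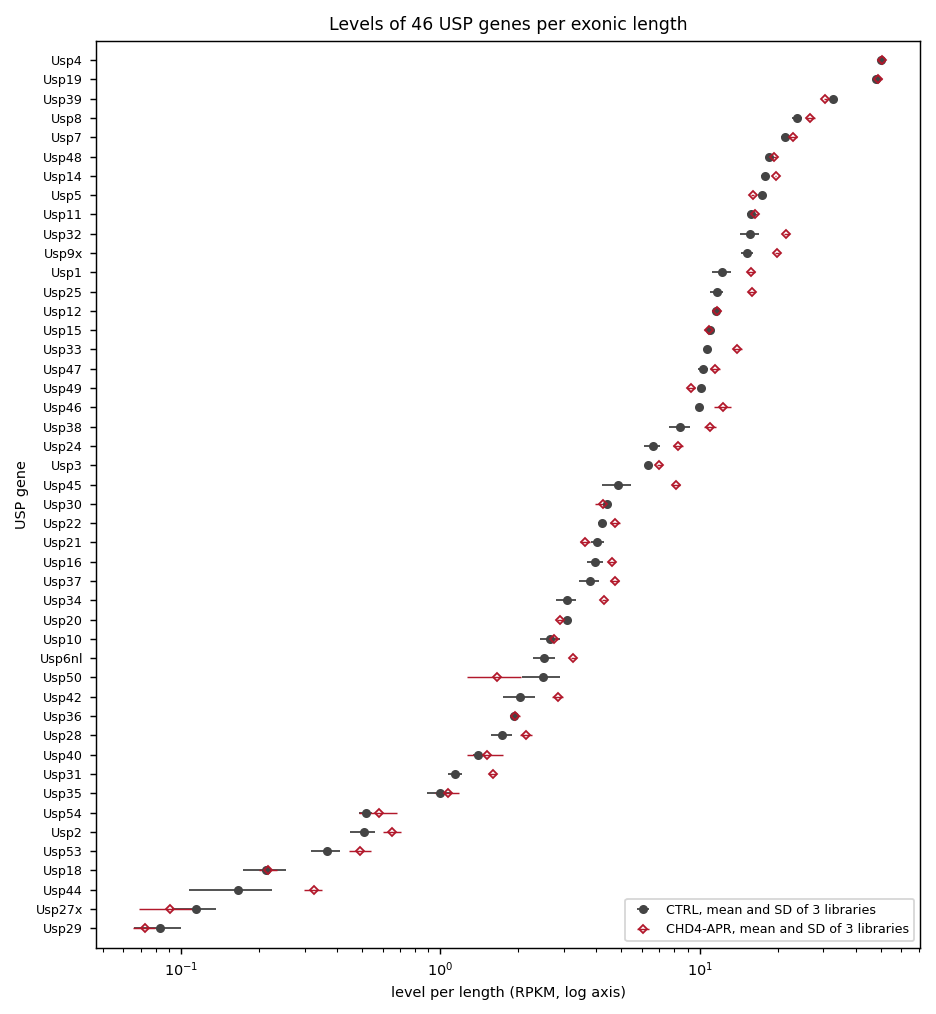
Levels of the 46 tested USP genes in RPKM on a log axis, as the mean and SD of 3 libraries per group. The order runs from Usp4 at 50.1 RPKM in CTRL libraries to Usp29 at 0.0829 RPKM, and most open diamonds (CHD4-APR) lie at or to the right of the filled points (CTRL).

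Histone and chromatin deubiquitinases held the largest rise of the family and 1 of its 2 falls. Of the 10 tested members, 5 rose, 1 fell and 4 did not pass, beside 20.4% and 17.8% of all genes that rose and fell. With the correction 2 were higher and 2 lower, beside 11.7% and 15.9% of all genes. Usp44, which removes ubiquitin from histone H2B and acts in the spindle checkpoint, was at 0.543, 0.527 and 0.942 CPM in the CTRL libraries and 1.36, 1.19 and 1.38 CPM in the CHD4-APR libraries. All CHD4-APR libraries were above all CTRL libraries, with CTRL replicate 3 the nearest. It rose 1.97-fold (log2 fold change 0.98 ± 0.26 SE, FDR 0.00678, edgeR's quasi-likelihood test), and the corrected value was 0.93 (FDR 0.0125). These levels rest on 23 to 65 counts per library. Usp42, which acts on p53 and on H2B, was at 10.8, 13.0 and 14.3 CPM and at 18.7, 17.5 and 17.0 CPM. The groups did not overlap and Usp42 rose 1.39-fold (0.48 ± 0.09, FDR 0.000665), with a corrected value of 0.43.

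Usp49, an H2B deubiquitinase, was at 85.0, 89.5 and 86.1 CPM in the CTRL and 79.3, 82.4 and 76.9 CPM in the CHD4-APR libraries. All CHD4-APR libraries were lower, and Usp49 fell to 0.915 of the CTRL level (log2 fold change -0.13 ± 0.05, FDR 0.0409, edgeR's quasi-likelihood test), with a corrected value of -0.21 (FDR 0.00118). The call was lost with DESeq2 (adjusted p 0.0510), with no filter on low counts (FDR 0.0772) and on leaving out any library but CTRL replicate 1 (FDR 0.0580 to 0.198). Of its exonic bases, 51.2% are shared with the gene model Gm20517 on the same strand, so part of its reads could be assigned to neither or either gene. Usp22, the deubiquitinase of the SAGA coactivator, rose from 20.5 ± 0.70 to 23.1 ± 1.10 CPM (SD, n = 3, log2 fold change 0.17, FDR 0.0457). Its corrected value was also 0.17 but was not called (FDR 0.0527), and the call was lost with DESeq2 (adjusted p 0.0583), with upper quartile scaling (FDR 0.0664), with no filter on low counts (FDR 0.0676) and on leaving out any library but CTRL replicate 1 (FDR 0.0523 to 0.201). Usp3, which acts on H2A, rose by 0.15 on the log2 scale with a corrected value of 0.01, and its call was lost with upper quartile scaling (FDR 0.0504), with no filter on low counts (FDR 0.0562) and on leaving out CTRL replicate 3 or either of CHD4-APR replicates 1 and 2 (FDR 0.0712 to 0.0934). Usp16, another H2A deubiquitinase, had a value of 0.21 (FDR 0.0117) that turned to -0.16 after the correction, where it was called lower (FDR 0.0221), and without CHD4-APR replicate 2 its FDR was 0.0509. Usp7 (0.10), which acts on p53 and its ligase Mdm2, Usp36 (0.01), a nucleolar enzyme, Usp21 (-0.16), which acts on H2A, and Usp27x (-0.35), a relative of Usp22, did not pass, and Usp27x was at 0.491 CPM in CTRL libraries with a standard error of 0.33. The corrected values of these 4 were -0.10, 0.03, -0.07 and -0.34, none of them called. On leaving out CTRL replicate 2, Usp7 was called higher (0.13, FDR 0.0420).

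Among the DNA repair and replication members, 6 of 11 rose and none fell (20.4% and 17.8% of all genes), and with the correction 2 were higher and 0 lower (11.7% and 15.9%). Usp45, which acts on the repair endonuclease subunit ERCC1, was at 26.0, 33.6 and 30.6 CPM in the CTRL libraries and 49.5, 52.5 and 49.7 CPM in the CHD4-APR libraries. The groups were well apart. Usp45 rose 1.68-fold (log2 fold change 0.75 ± 0.07 SE, FDR 2.2e-06, edgeR's quasi-likelihood test) and its corrected value was 0.45 (FDR 3.56e-05). Usp1, which with its partner Wdr48 deubiquitinates FANCD2 and PCNA, rose from 45.4 ± 3.88 to 59.1 ± 2.02 CPM (SD, n = 3, log2 fold change 0.38), with a corrected value of 0.27 that was also called. Usp24 (0.33), Usp37 (0.32), which acts on cyclin A, Usp28 (0.31), which acts on Myc, and Usp46 (0.30), another Wdr48 partner, rose without the correction, and none of these 4 was called with it (corrected values 0.11, 0.01, 0.18 and 0.03). Usp40 (0.11), Usp48 (0.06), Usp11 (0.05), a partner of Brca2, Usp12 (0.01), a further Wdr48 partner, and Usp29 (-0.20), which lies in the imprinted Peg3 region, did not pass in either fit, with corrected values of -0.13, -0.07, 0.005, -0.02 and -0.57.

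The ubiquitin chain recycling group held 2 tested members, whose values had opposite signs. Usp14, which trims ubiquitin chains at the proteasome, was at 148, 153 and 145 CPM in the CTRL and 164, 165 and 163 CPM in the CHD4-APR libraries. The groups did not overlap, and Usp14 rose 1.10-fold (log2 fold change 0.14 ± 0.04 SE, FDR 0.0139, edgeR's quasi-likelihood test), whereas the corrected value was -0.20 and called lower (FDR 0.00217). The call without correction was lost on leaving out CTRL replicate 3 (FDR 0.0811) or CHD4-APR replicate 2 (FDR 0.0617). Usp14 lies on chromosome 18 and shares 26.0% of its exonic bases with Thoc1 on the opposite strand, and the library kit does not mark strand. Usp5, which takes apart free ubiquitin chains, was at 80.3 ± 2.99 CPM in CTRL and 74.1 ± 1.09 CPM in CHD4-APR libraries (SD, n = 3, log2 fold change -0.12, FDR 0.0612), with a corrected value of -0.03. It passed with upper quartile scaling (FDR 0.0325) and in a fit of protein-coding genes only (FDR 0.0363).

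Of the 7 members placed with trafficking and the endoplasmic reticulum, 4 rose and none fell (20.4% and 17.8% of all genes), and with the correction 2 were higher and 0 lower (11.7% and 15.9%). Usp32, found at the Golgi and known to act on Rab7, was at 108, 124 and 127 CPM in the CTRL libraries and 167, 169 and 162 CPM in the CHD4-APR libraries. Every CHD4-APR library was above every CTRL library. It rose 1.38-fold (log2 fold change 0.47 ± 0.05 SE, FDR 9.24e-06, edgeR's quasi-likelihood test) and kept a corrected value of 0.24 (FDR 0.000452). Usp33, which acts in receptor recycling, rose from 103 ± 2.27 to 135 ± 5.10 CPM (SD, n = 3, log2 fold change 0.39), but its corrected value of 0.10 was not called. Usp33 shares 15.3% of its exonic bases with Gm43857 on the opposite strand (35 to 59 counts per library). Usp6nl rose by 0.37 on the log2 scale, with a corrected value of 0.21 that was called. Usp8, which deubiquitinates receptors on endosomes, rose by 0.17 with a corrected value of 0.08, and its call was lost without CHD4-APR replicate 2 (FDR 0.0610). Usp10 (0.04), a partner of the G3bp proteins, Usp19 and Usp20 (-0.08) did not pass in either fit, with corrected values of 0.01, 0.07 and -0.08.

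In the signalling and immunity group, 5 of 9 members rose and none fell (20.4% and 17.8% of all genes), and with the correction 3 were higher and 2 lower (11.7% and 15.9%). Usp34, which acts on axin in Wnt signalling, was at 51.1, 59.2 and 60.0 CPM in the CTRL libraries and 77.9, 80.7 and 78.0 CPM in the CHD4-APR libraries. The groups were apart, and Usp34 rose 1.39-fold (log2 fold change 0.47 ± 0.06 SE, FDR 1.47e-05, edgeR's quasi-likelihood test). After the correction its value was 0.06 (FDR 0.287). Usp34 has the longest exons of the tested members, 18453 bases, and a GC content of 41.5%. Of its exonic bases, 11.6% are shared with Ahsa2 on the opposite strand (831 to 1010 counts per library), and the library kit does not mark strand. Usp25, which acts in TRAF signalling, rose from 60.7 ± 3.41 to 82.5 ± 2.34 CPM (SD, n = 3, log2 fold change 0.44) and Usp38 from 48.1 ± 4.39 to 63.2 ± 3.47 CPM (SD, n = 3, 0.39), and both were called after the correction (0.31 and 0.27). Usp38 shares 20.5% of its exonic bases with Gm9725 on the opposite strand (36 to 58 counts per library). Usp9x, a deubiquitinase of Smad4 and Mcl1, rose from 230.3 ± 12.4 to 300.1 ± 4.85 CPM (SD, n = 3, 0.38), and its corrected value was -0.02. Usp47, which acts on DNA polymerase beta, rose by 0.16, its corrected value was -0.16 and called lower (FDR 0.0117), and its call without correction was lost without CHD4-APR replicate 3 (FDR 0.0863).

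Usp2, which acts on cyclin D1, did not pass (log2 fold change 0.37 ± 0.14, FDR 0.0516, edgeR's quasi-likelihood test). It was at 2.46, 2.17 and 2.71 CPM in CTRL and 2.86, 3.37 and 3.22 CPM in CHD4-APR libraries, without overlap, and its corrected value of 0.41 was called (FDR 0.0381). Over the other alternatives without a correction the FDR was 0.0465 to 0.177, lowest on leaving out CHD4-APR replicate 1 and highest on leaving out CTRL replicate 2, and it was also under 0.05 with RLE size factors (0.0497), with no filter on low counts (0.0496) and on leaving out CTRL replicate 3 (0.0492). Usp15, a close relative of Usp4, is described because it was called only with the correction, and, like Usp2, was chosen after its values were seen. It was at 183, 184 and 177 CPM in CTRL and 175, 177 and 189 CPM in CHD4-APR libraries. The groups overlapped (log2 fold change -0.01 ± 0.04, FDR 0.921), but the corrected value was -0.39 and called lower (FDR 5.41e-05), with 16599 exonic bases and a GC content of 42.3%. Usp18, the protease that removes the ubiquitin-like ISG15, was at 0.597 ± 0.11 and 0.608 ± 0.05 CPM (SD, n = 3) and did not pass (log2 fold change 0.03, corrected value 0.09).

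The mitochondrial members Usp30, which opposes Parkin on the outer membrane, and Usp35 did not pass (-0.05 and 0.10, corrected values -0.01 and 0.19). Of the 4 tested members with less settled roles, 2 rose and 1 fell (20.4% and 17.8% of all genes), and with the correction 1 was higher and 1 lower (11.7% and 15.9%). Usp31 was at 11.1, 11.7 and 12.6 CPM in the CTRL libraries and 15.9, 17.0 and 16.4 CPM in the CHD4-APR libraries. The groups did not overlap, and Usp31 rose 1.39-fold (log2 fold change 0.48 ± 0.07 SE, FDR 0.000129, edgeR's quasi-likelihood test), with a corrected value of 0.27 (FDR 0.00811). Usp50 was at 9.02, 6.42 and 7.75 CPM in the CTRL and 4.21, 4.75 and 6.50 CPM in the CHD4-APR libraries. The groups overlapped slightly, since CHD4-APR replicate 3 was above CTRL replicate 2. Usp50 fell to 0.670 of the CTRL level (-0.58 ± 0.15, FDR 0.00583), and the corrected value of -0.57 was close to it (FDR 0.00936). Its gene body overlaps Usp8 on the opposite strand, with no exonic bases in common. The library kit does not mark strand, so reads from introns of Usp8 could be counted for Usp50, which was not tested. In the CTRL libraries Usp8 was at 99.6 CPM and Usp50 at 7.73 CPM. Usp53 rose by 0.43 (FDR 0.00897), with a corrected value of 0.05 that was not called, and Usp54 (0.18, corrected value 0.06) did not pass.

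**Figure D3:**
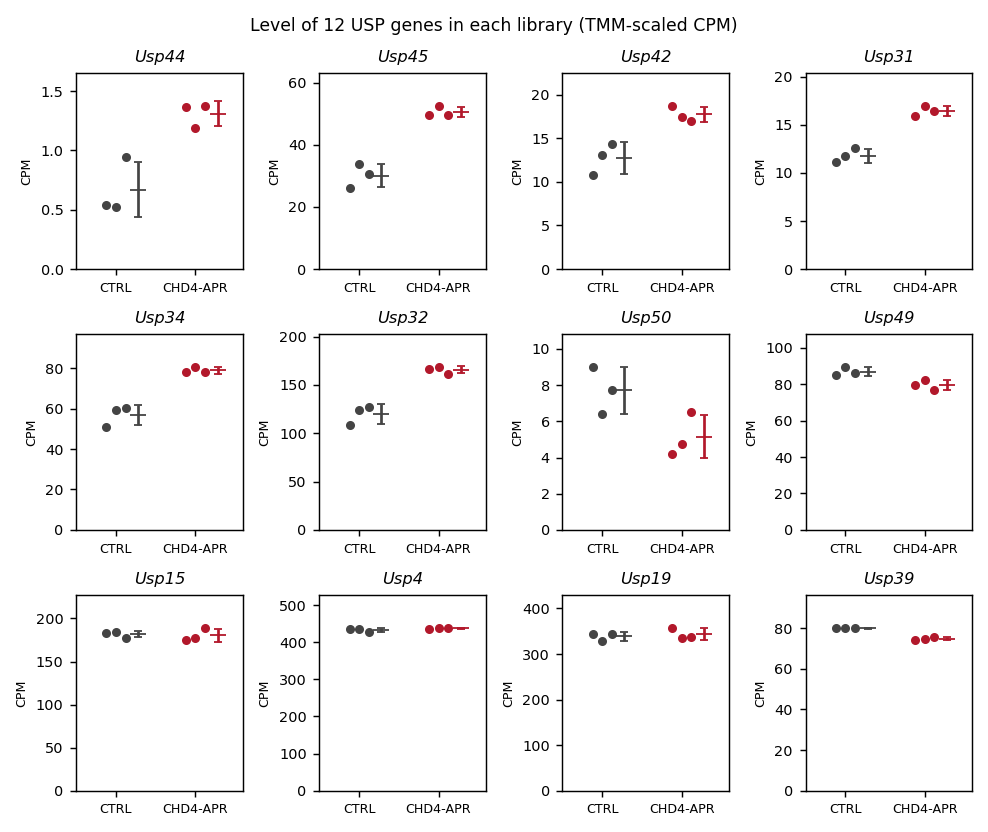
Levels of 12 USP genes in each of the 6 libraries, in TMM-scaled CPM from 0, with the mean and SD of 3 libraries beside the points. The 6 largest rises are apart between the groups, Usp50 overlaps, and Usp15, Usp4 and Usp19 lie at like levels in both groups.

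Some close relatives within the family differed in their values, though the differences between them were not tested. Usp45 rose by 0.75 and its relative Usp16 by 0.21, Usp46 rose by 0.30 and Usp12 was at 0.01, Usp33 rose by 0.39 and Usp20 was at -0.08, Usp42 rose by 0.48 and Usp36 was at 0.01, and Usp38 rose by 0.39 and Usp35 was at 0.10. The relatives Usp25 and Usp28 both rose, by 0.44 and 0.31. Usp53 rose by 0.43 and its relative Usp54 was at 0.18. The relatives Usp4, Usp11 and Usp15 were at 0.02, 0.05 and -0.01. After the correction, Usp45 and Usp16 stood at 0.45 and -0.16, Usp46 and Usp12 at 0.03 and -0.02, Usp33 and Usp20 at 0.10 and -0.08, Usp42 and Usp36 at 0.43 and 0.03, Usp38 and Usp35 at 0.27 and 0.19, and Usp25 and Usp28 at 0.31 and 0.18. Usp4, Usp11 and Usp15 then stood at -0.06, 0.005 and -0.39, and Usp53 and Usp54 at 0.05 and 0.06.

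The members called higher had a lower GC content than those that did not pass. Their median was 44.1%, against 50.9% for the 21 members that did not pass. Under 45% GC, 12 of 14 USP genes rose and 0 fell, where 43.5% of all genes in that class rose and 4.91% fell. From 45% to under 50%, 9 of 16 rose and 1 fell (23.7% of all genes rose and 12.1% fell), and at 50% or more 2 of 16 rose and 1 fell (5.88% of all genes rose and 28.3% fell). The median log2 fold change of the family in these classes was 0.35, 0.17 and 0.01, against 0.19, 0.04 and -0.11 over all genes. After the correction it was 0.02, 0.07 and 0.00, and r with GC content over the 46 genes was 0.04. With exonic length on the log2 scale, r over the 46 genes was 0.16 without the correction and -0.28 with it. The family's exons are long, with a median of 7685 bases against 3688 over all genes tested. The correction lowered the value of 35 of the 46 members, with shifts from -0.41 to 0.09 on the log2 scale over all 46, and changed the sign of 9.

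**Figure D4:**
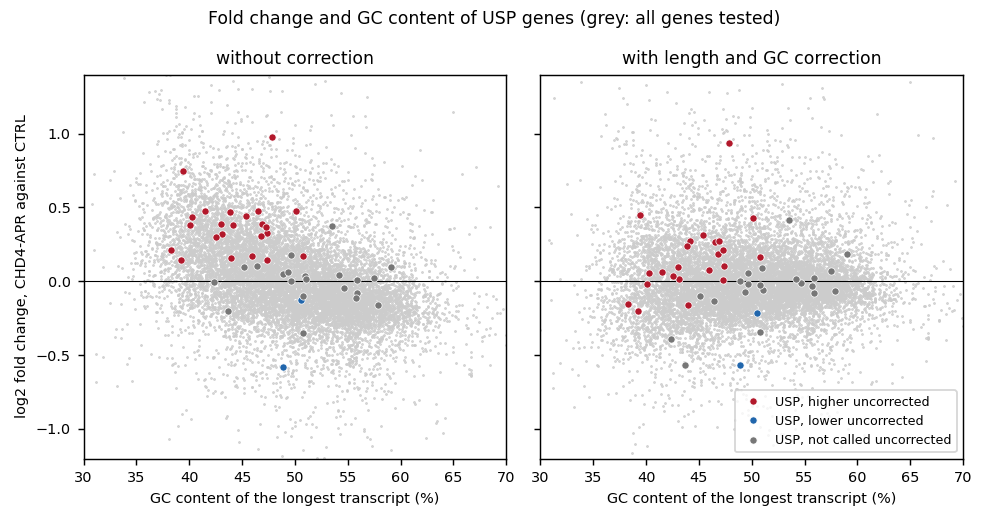
Log2 fold change against GC content of the longest transcript, without (left) and with (right) the length and GC correction, for all genes tested (grey, those outside the axes not drawn) and the 46 USP genes (coloured by their call without correction). The USP genes called higher lie mostly under 50% GC on the left, and r over the 46 genes goes from -0.46 to 0.04.

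Promoter windows from RefSeq, on GRCm38.p6 and from 250 bases before to 50 bases after a start site, were at hand for 42 of the 55 members, of which 35 were tested. The windows of the 3 largest called rises and the 2 called falls with an entry are shown 5′ to 3′ on the gene's strand, with matches to the motifs searched in capitals. They are Usp45 (chr4:21776020-21776319, plus strand, at a start site inside the annotated gene), Usp31 (chr7:121707393-121707692, minus strand), Usp34 (chr11:23306645-23306944, plus strand), Usp50 (chr2:126783411-126783710, minus strand) and Usp49 (chr17:47630440-47630739, plus strand).
Usp45: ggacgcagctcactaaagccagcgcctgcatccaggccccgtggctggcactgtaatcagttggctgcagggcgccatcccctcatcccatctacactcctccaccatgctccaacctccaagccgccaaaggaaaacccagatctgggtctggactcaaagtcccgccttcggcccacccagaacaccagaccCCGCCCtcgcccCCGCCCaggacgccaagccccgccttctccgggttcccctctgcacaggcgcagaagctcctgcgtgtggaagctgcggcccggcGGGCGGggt
Usp31: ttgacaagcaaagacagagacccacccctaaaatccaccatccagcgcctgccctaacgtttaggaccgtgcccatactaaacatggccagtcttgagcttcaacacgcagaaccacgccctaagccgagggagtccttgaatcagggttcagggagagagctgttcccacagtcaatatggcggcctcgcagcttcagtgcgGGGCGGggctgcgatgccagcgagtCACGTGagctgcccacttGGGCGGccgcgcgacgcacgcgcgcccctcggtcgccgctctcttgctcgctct
Usp34: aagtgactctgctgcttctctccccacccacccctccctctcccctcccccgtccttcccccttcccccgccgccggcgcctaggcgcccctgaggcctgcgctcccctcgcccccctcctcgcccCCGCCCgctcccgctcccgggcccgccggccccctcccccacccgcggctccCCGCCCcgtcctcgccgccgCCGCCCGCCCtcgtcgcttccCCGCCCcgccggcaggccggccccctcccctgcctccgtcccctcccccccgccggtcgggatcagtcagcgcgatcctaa
Usp50: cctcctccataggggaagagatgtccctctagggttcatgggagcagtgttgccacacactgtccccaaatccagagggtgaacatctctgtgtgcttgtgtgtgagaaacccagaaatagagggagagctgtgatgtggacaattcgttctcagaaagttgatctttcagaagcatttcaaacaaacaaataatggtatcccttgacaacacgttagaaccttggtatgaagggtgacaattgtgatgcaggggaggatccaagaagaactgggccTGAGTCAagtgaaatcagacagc
Usp49: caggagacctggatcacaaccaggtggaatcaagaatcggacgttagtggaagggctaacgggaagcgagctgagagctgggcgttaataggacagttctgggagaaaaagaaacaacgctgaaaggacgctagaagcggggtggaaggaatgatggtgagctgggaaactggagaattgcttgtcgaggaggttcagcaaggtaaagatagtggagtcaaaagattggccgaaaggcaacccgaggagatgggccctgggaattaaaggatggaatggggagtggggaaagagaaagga
The capitals mark GC boxes in Usp45, Usp31 and Usp34, an E-box in Usp31 and an AP-1 match in Usp50, and the Usp49 window held none.

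All motifs were searched on both strands. For each USP gene the window nearest the annotated start was used, whereas the 32851 windows cover 27025 symbols, some with several windows. Those windows were not limited to tested genes. The window used lay far from the annotated start for Usp7 (53966 bases), Usp37 (38463), Usp30 (34872), Usp54 (22709), Usp2 (17899) and Usp45 (9114). The GC box, GGGCGG, was in 27 of 42 USP windows (64.3%), against 35.7% of all 32851 windows. The GATA motif, spelled AGATAA or with another first letter TGATAA, was in 0 of 42, against 18.6% of all windows. The AP-1 motif, TGAGTCA, was in 4 of 42 (9.52%), against 5.20% of all. The cyclic AMP response element, TGACGTCA, was in 1 (2.38%), against 1.79% of all. The E-box, CACGTG, was in 5 (11.9%), against 7.15% of all. The ETS motif, CCGGAAGT, was in 4 (9.52%), against 3.89% of all. None of these spellings holds another. Among the 15 windows of members called higher, 13 held a GC box and 4 an E-box, and among the 20 of other tested members 12 and 1 did. The AP-1 motif was in 1 of the 15 and 2 of the 20, the cyclic AMP response element in 0 and 1, and the ETS motif in 1 and 3. The median GC content of the USP windows was 64.7%, against 52.7% over all windows, so GC-rich and AT-rich motifs are not equally likely in them. These matches describe letters and not binding.

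Of 36 other deubiquitinases in the table, without a Usp symbol and mostly of other folds, 29 were tested, and 11 rose (20.4% of all tested genes rose) and 5 fell (17.8% of all tested genes fell). The median log2 fold change was 0.06. Tnfaip3, the A20 enzyme that restrains NF-kB signalling, was at 9.35, 9.21 and 8.14 CPM in CTRL and 14.6, 14.2 and 14.6 CPM in CHD4-APR libraries and rose by 0.70 on the log2 scale (FDR 8.12e-06, edgeR's quasi-likelihood test). Otud4 rose by 0.65, Vcpip1 by 0.62 and Cyld, the tumour suppressor that removes ubiquitin chains in the same pathway, by 0.47. The falls of largest size were Mpnd (-0.30), Josd2 (-0.30) and the proteasome-bound Uchl5 (-0.17). After the correction 8 of the list were higher (11.7% of all genes) and 7 lower (15.9% of all genes), and Tnfaip3, Otud4, Vcpip1 and Cyld were among those called higher (0.55, 0.40, 0.26 and 0.15).

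Of 11 partners of USP enzymes, 7 rose (20.4% of all tested genes rose) and none fell (17.8% of all fell). The largest rises were Atxn7 (0.67), the SAGA subunit that holds the Usp22 module, Stam (0.44), a Usp8 partner on endosomes, and the Usp10 partner G3bp2 (0.37). With the correction only Atxn7 was still called higher (0.50, with 11.7% of all genes), and 3 partners, Gmps (-0.36), Wdr48 (-0.15) and Eny2 (-0.46), were called lower (15.9% of all genes). Of 8 ligases and conjugating enzymes for histones H2A and H2B, Rnf2 (0.56), Rnf168 (0.51) and Rnf20 (0.24) rose, and Rnf8 (-0.24) and Rnf40 (-0.15) fell, beside 20.4% and 17.8% of all genes. After the correction the 3 rises and Rnf8 kept their calls, Rnf40 lost its call (-0.08) and Ube2a was called lower (-0.23), beside 11.7% higher and 15.9% lower of all genes. Among the ubiquitin genes and activating enzymes, Uba6 rose (0.57), and Rps27a (-0.29) and Ubb (-0.18), which encode ubiquitin, fell, beside 20.4% and 17.8% of all genes. Rps27a was also called lower after the correction (-0.33, with 15.9% of all genes), and Ubb (-0.03) and Uba6 (0.22) were not called. In the ISG15 pathway of Usp18, Ube2l6 (-0.23) and Uba7 (-0.14) fell, beside 17.8% of all genes. Isg15 itself, at 0.70 CPM in CTRL libraries, did not pass. Ube2l6 (-0.14) and Uba7 (-0.12) were also called lower after the correction, beside 15.9% of all genes.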

How the data were processed

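Poly(A) RNA of 3 CTRL and 3 CHD4-APR libraries was sequenced after a TruSeq RNA v2 preparation. The deposited values were raw counts per Ensembl gene, which the authors made by trimming with Cutadapt, aligning with STAR 2.7.10a to GRCm38 and counting with featureCounts, and which are not normalized. Another 2 columns of samples from elsewhere were not used. The counting of strand and of reads matching several genes is not given in the sources used here. Genes were annotated with GENCODE M21 (48349 of 48709 identifiers matched), exonic length as the union of exons and GC content from the longest transcript. Counts were filtered with filterByExpr, scaled by TMM and tested with edgeR 4.0.16 (glmQLFTest, R 4.3.3), with Benjamini-Hochberg adjustment over 12722 genes. A standard error is the size of the log2 fold change divided by the root of its F value. RPKM was CPM per kilobase of exonic length. In the length and GC correction, each library's log2 CPM deviation was smoothed with mgcv 1.9.3 and passed as offsets, for 12677 genes. DESeq2 1.42.0, limma-voom 3.58.1, other scalings, other filters, a replicate block, leaving out each library and an FDR of 0.01 were alternatives. On simulated counts with 200 changed genes among 12722, edgeR recovered 171 with 7 false calls, and a simulated GC trend gave 4354 calls without and 0 with the correction. No pair of replicates was a copy of another.

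The members, gene lists and tests were chosen with earlier results of these data known. Every tested member was named, and values per library were given for the 6 largest called rises, the called falls (up to 6), the largest called change in each direction within a role, and the 3 highest RPKM, and outside this rule for Usp2 and Usp15. Of the other lists, called members with the 3 largest changes each way, and Cyld, were named. Protein sequences were not used here. A gene of the list of ubiquitin genes and activating enzymes is not reported here.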

Additional observations from a re-analysis of the deposited data

How the results depend on the processing

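Of the 23 USP genes called higher, 17 kept call and direction in all 15 alternatives without a length and GC correction and 9 in all 17, and of the 21 not called, 9 and 8 did. Usp50 was called lower in all 17. The number higher was 17 to 24 outside the corrections. The count of USP genes lower, 2, was 1 with DESeq2, with no filter on low counts and at an FDR under 0.01, 3 with upper quartile scaling and with protein-coding genes only, and 1 to 2 without single libraries. With the length and GC correction 10 were higher, 6 lower and 1 at 1.5-fold, with a median log2 fold change of 0.020, and with the correction and the replicate block 13, 7, 1 and 0.021. All genes split into 2601 higher and 2270 lower without the correction, 1480 and 2017 with it, and 1671 and 2309 with it and the replicate block. The number of USP genes higher was 18 without CHD4-APR replicate 2. The 5 other deubiquitinases lower were 3 with no filter, 2 at an FDR under 0.01, 10 with the correction and the replicate block, and 2 to 6 without single libraries.

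Correlations of deviations were 0.07, 0.06 and -0.03 for libraries with the same replicate number and -0.08 to 0.03 for different numbers. These values do not settle whether the libraries were weakly paired. With the replicate block alone, 5214 of all genes were called, against 4871 without it. Of the USP genes, 24 were then higher and 2 lower, against 23 and 2, the added gene being Usp2. The block together with the correction added Usp22 (FDR 0.0356), Usp24 (FDR 0.0482) and Usp33 (FDR 0.0400) to the members called higher and Usp7 (FDR 0.0431) to those called lower.

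The log2 fold change turned in sign under the correction, without and with the replicate block, for Usp12 (-0.021 and -0.021), Usp14 (-0.20 and -0.20), Usp16 (-0.16 and -0.16), Usp4 (-0.058 and -0.058), Usp40 (-0.13 and -0.14), Usp47 (-0.16 and -0.16), Usp48 (-0.073 and -0.073), Usp7 (-0.10 and -0.10) and Usp9x (-0.020 and -0.020). It turned with upper quartile scaling for Usp12 (-0.012), Usp36 (-0.011) and Usp4 (-0.00029), and with protein-coding genes only for Usp12 (-0.0044) and Usp36 (-0.0030). With each library left out in turn, it crossed 0 for Usp10 (-0.031 to 0.10), Usp12 (-0.029 to 0.032), Usp15 (-0.037 to 0.019), Usp18 (-0.053 to 0.19), Usp19 (-0.0069 to 0.040), Usp30 (-0.089 to 0.010), Usp36 (-0.023 to 0.039) and Usp40 (-0.023 to 0.20). For these changes the cause was not tested.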
